A study of Mus musculus with 12 samples.

Results

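ERK pathway feedback genes are genes that ERK, the last kinase of the RAS-RAF-MEK cascade, switches on and whose products hold the cascade back or carry its output. The 10 genes described here were listed by name, with earlier results of these data known. They are the dual-specificity phosphatases Dusp4, Dusp5 and Dusp6 and the Sprouty genes Spry1, Spry2 and Spry4. With them are the Sprouty-related genes Spred1 and Spred2 and the ETS transcription factors Etv4 and Etv5. All 10 were found among the 27179 Entrez gene IDs of the count table, and all 10 passed the filter on low counts, as did 12910 genes in all.

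When growth factors bind receptor tyrosine kinases, RAS is loaded with GTP and activates RAF, MEK and ERK in turn. Among the genes ERK induces are phosphatases that remove phosphate from ERK itself, Sprouty and Spred proteins that act at the level of the receptor, RAS or RAF, and the PEA3 group of ETS factors, so the transcript levels of these genes are widely read as a gauge of ERK output. Carcinoma cells often run this cascade at a high level. The values described here are RNA levels, and ERK activity itself was not measured.

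RNA was sequenced from MC38-idAdpgkG cells, mouse colon carcinoma cells of C57BL/6 origin that stably carry a construct for Adpgk with the R304M change, a model neoantigen, fused to turboGFP. Doxycycline switches the construct on, and dTAG-13, a small molecule that brings a tagged protein to the cereblon ubiquitin ligase, is used to degrade its product. All 4 groups received mouse interferon-gamma at 20 ng/mL for 51 h. Control cells had nothing else, doxycycline cells had 1 µg/mL doxycycline throughout, dTAG-13 cells had 48 h without and then 3 h with 1 µM dTAG-13, and the cells with both agents had doxycycline throughout and dTAG-13 during the final 3 h. There was no group without interferon-gamma.

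Each group was 1 biological sample measured as 3 technical replicate libraries, so errors and p-values describe the spread between libraries of 1 culture and a difference between groups is a difference between 2 cultures. In bulk RNA, a change in the share of cells that express a gene and a change in RNA per cell cannot be told apart. The libraries held between 22165538 and 32809573 counts. Adpgk was at 160.5 ± 2.49 CPM in control and 181 ± 4.18 CPM with dTAG-13, against 1338 ± 20.1 CPM with doxycycline and 1369 ± 15.7 CPM with both agents (mean ± SD, n = 3), which fits the labels on doxycycline. CPM is the count scaled to the TMM-adjusted library size. The labelled tissue was checked against 10 markers of colon epithelium: none passed the filter, Epcam and Cdx2 had no read in any library, and the 10 together came to between 0.354 and 1.04 CPM per library. Of 6 fibroblast markers, 3 were expressed (Col3a1, Dcn and Pdgfra), while Col1a1, Col1a2 and Acta2 averaged 0.042, 0.178 and 0.032 CPM in control. The 6 summed to 1158 to 1181 CPM in control, 1409 to 1452 CPM with doxycycline, 1092 to 1122 CPM with dTAG-13 and 1170 to 1198 CPM with both. Col3a1 was the largest part of the sum, with a mean of 850 CPM in control. The 6 immune markers summed to at most 1.47 CPM and the 3 endothelial markers to at most 4.15 CPM. The part of these marker levels in the results below was not tested.

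The promoters below are shown for 4 members that stand for the patterns in the data. Dusp5 fell most with doxycycline. Dusp6 fell with doxycycline alone and with dTAG-13 alone, and was higher with both agents than with doxycycline alone. Spred2 and Etv5 fell most with dTAG-13 among the members whose dTAG-13 effect had no called difference between cells with and without doxycycline. Each sequence is the 250 bases before the annotated transcript start in RefSeq on GRCm38.p6, 5′ to 3′ on the gene's strand, with capitals where a searched motif was found. They lie at chr19:53528895-53529144 (+), chr10:99262981-99263230 (+), chr11:19924192-19924441 (+) and chr16:22439571-22439820 (-), in the order printed. The genes themselves span chr19:53529145-53541809, chr10:99263231-99267489, chr11:19924442-20024026 and chr16:22381313-22439570.
Dusp5: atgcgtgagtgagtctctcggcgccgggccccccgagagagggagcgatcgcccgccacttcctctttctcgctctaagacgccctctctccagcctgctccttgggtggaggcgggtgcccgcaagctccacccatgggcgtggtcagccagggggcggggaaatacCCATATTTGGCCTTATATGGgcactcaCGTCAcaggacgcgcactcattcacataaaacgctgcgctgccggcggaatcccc
Dusp6: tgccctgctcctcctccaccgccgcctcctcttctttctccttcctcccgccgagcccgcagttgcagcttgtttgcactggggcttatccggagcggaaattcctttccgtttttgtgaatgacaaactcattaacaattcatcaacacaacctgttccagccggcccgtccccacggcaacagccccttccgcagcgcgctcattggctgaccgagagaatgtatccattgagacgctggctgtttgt
Spred2: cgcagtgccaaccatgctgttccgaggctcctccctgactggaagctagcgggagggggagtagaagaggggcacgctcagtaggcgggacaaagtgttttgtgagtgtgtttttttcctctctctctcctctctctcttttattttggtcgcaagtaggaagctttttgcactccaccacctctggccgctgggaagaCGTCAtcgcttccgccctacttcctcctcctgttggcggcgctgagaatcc
Etv5: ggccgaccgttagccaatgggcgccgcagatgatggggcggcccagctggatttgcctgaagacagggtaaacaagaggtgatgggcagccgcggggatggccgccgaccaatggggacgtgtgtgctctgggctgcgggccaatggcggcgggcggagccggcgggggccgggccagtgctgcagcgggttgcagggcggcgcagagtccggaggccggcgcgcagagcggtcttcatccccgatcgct

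Both strands of each window were searched for 5 motifs: the CArG box bound by serum response factor, the ETS core CCGGAA, the AP-1 site TGANTCA, the cyclic AMP response element TGACGTCA and the shorter element TGACG, which the full element contains. RefSeq promoters were matched for 7 of the 10 members. Dusp5 held a pair of adjoining CArG boxes, the first from 82 to 73 and the second from 72 to 63 bases before the start, and the shorter element from 55 to 51 bases before it. A CArG box was found in 1.47% of 32851 promoter windows of this length. Spred2 held the shorter element from 51 to 47 bases before the start, a motif found in 17.8% of the windows. In both genes it stands in capitals as its reverse complement. None of the 5 motifs was found in the windows of Dusp6, Etv5, Spry1, Spry2 and Spred1. Among all windows, 3952 hold the ETS core, 6.75% the AP-1 site and 1.55% the full response element. These matches describe letters and not binding.

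Levels in control differed widely between members. Per kilobase of merged exons, Dusp6, the cytoplasmic phosphatase selective for ERK, was the highest at 64.4 ± 0.402 CPM per kilobase (SD, n = 3). Dusp5, a nuclear ERK phosphatase, came next at 31.9 ± 0.999 CPM per kilobase and Etv5 followed at 30.5 ± 0.571, and the libraries of these neighbours overlapped. Spry2 stood at 27.5 ± 1.85, Spred2 at 18.8 ± 0.607, Spry4 at 17.9 ± 0.158, Etv4 at 17.2 ± 0.671 and Spred1 at 13.4 ± 0.401 CPM per kilobase. Among these, only Spry4 and Etv4 overlapped as neighbours. Dusp4, a nuclear phosphatase of ERK and JNK, was lower at 6.42 ± 0.475 CPM per kilobase. Spry1 was the lowest at 0.879 ± 0.136 CPM per kilobase. Dusp6 was the highest and Spry1 the lowest in every group, and Spred2 stood above Etv4 in control and doxycycline cells but below it in both dTAG-13 groups.

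**Figure D1:**
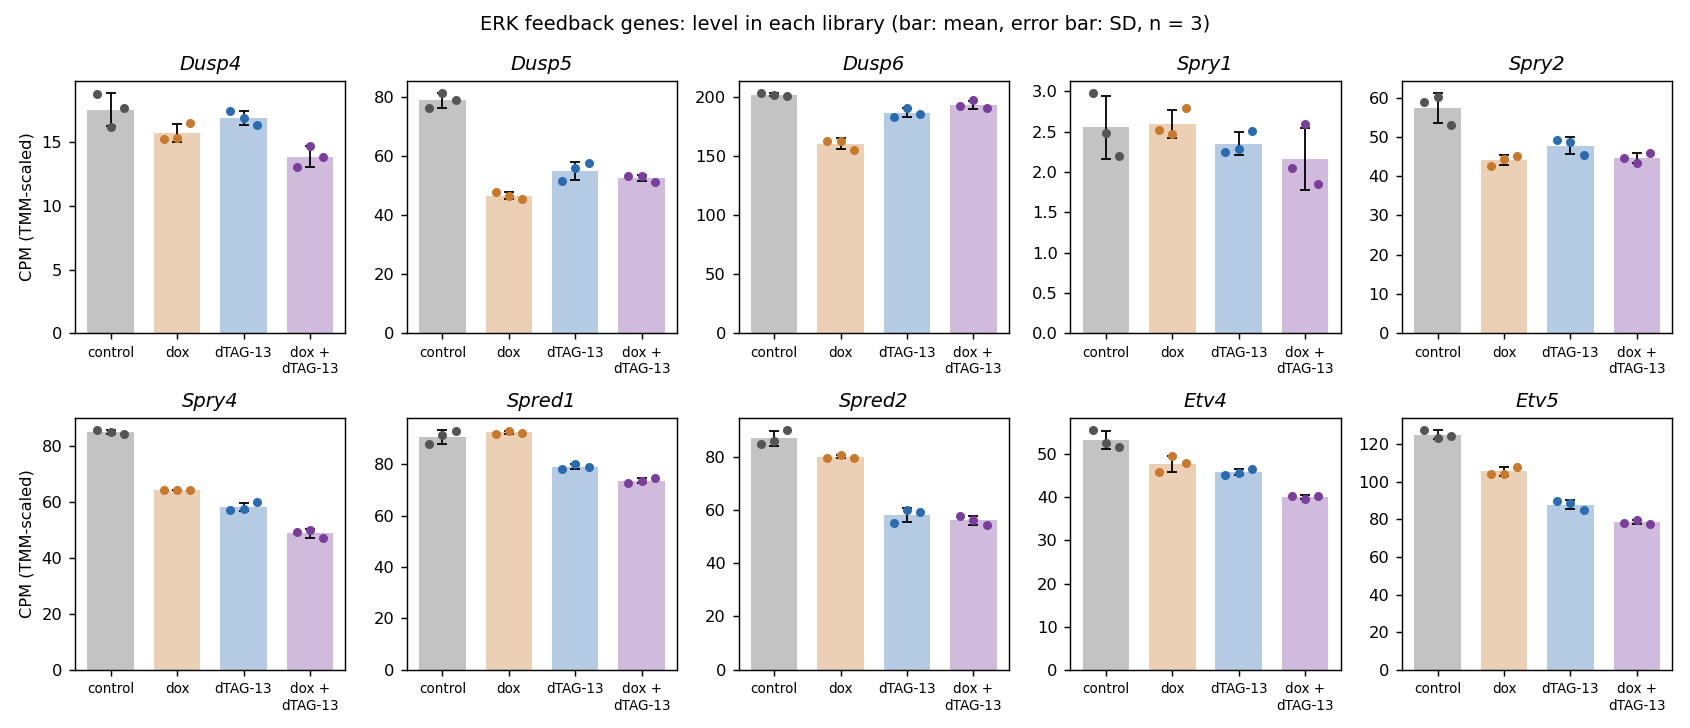
Level of each of the 10 ERK feedback genes in every library, in CPM on the TMM-scaled library size, each panel from 0. Bars are the mean and error bars the SD of 3 libraries per group, and points are libraries. Dusp5 and Dusp6 had their lowest mean with doxycycline alone. Spry2 was about equally low with doxycycline alone (44.1 CPM) and with both agents (44.6 CPM), and those libraries overlapped. Dusp4, Spry1, Spry4, Spred1, Spred2, Etv4 and Etv5 had their lowest mean with both agents, where Spry1 and Spred2 overlapped with dTAG-13 alone.

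Doxycycline was compared with control to see which transcripts differed in cells given doxycycline, in which the construct was on. All 4 groups carried the construct, so effects of doxycycline itself and of the construct cannot be told apart. Of the 10 members, 7 fell and none rose at an adjusted p under 0.05 in edgeR's quasi-likelihood test, adjusted over all genes by Benjamini-Hochberg. Of all genes tested, 33.5% were called in this comparison, 14.8% as higher and 18.7% as lower. The members' median log2 fold change was -0.205, beside -0.01 for all genes tested. Without regard to sign, the median was 0.205 for the members and 0.112 for all genes. The 7 that fell also had no overlap between the libraries of the groups, which held for 43.9% of all genes. The summed fibroblast markers, given above, were higher in the doxycycline cells, but the 3 expressed markers did not move together. Col3a1 had a mean of 850 CPM in control and 1105 CPM with doxycycline, Pdgfra 157 and 190 CPM, and Dcn 164 and 143 CPM. With dTAG-13 alone Col3a1 was at 756 CPM, Pdgfra at 152 CPM and Dcn at 199 CPM.

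Dusp5 changed most with doxycycline. Its control libraries held 76.4, 81.3 and 78.8 CPM and its doxycycline libraries 47.8, 46.5 and 45.4 CPM, so every doxycycline library lay far below every control library. The log2 difference was -0.76 (SE 0.0406, edgeR adjusted p 1.3e-18), a fall to 0.591 of the control level. Dusp6 was measured at 203, 202 and 201 CPM in control and at 163, 163 and 155 CPM with doxycycline. Its log2 difference was -0.33 (SE 0.0262, adjusted p 1.74e-13). Dusp6 overlaps the non-coding gene Gm34921 in the annotation, and without a stated strand setting their reads were not separable. Dusp4 went from 18.8, 16.2 and 17.7 CPM to 15.3, 15.4 and 16.5 CPM, and the groups overlapped. Its log2 fold change of -0.16 (unadjusted 95% interval -0.297 to -0.029, adjusted p 0.0619) was not called, and became a call without control replicate 2 or doxycycline replicate 3 (-0.209 to -0.205).

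The Sprouty genes encode adaptor-like inhibitors that ERK signalling induces and that act below receptor tyrosine kinases. Spry4 held 85.8, 85.0 and 84.3 CPM in control and 64.2, 64.4 and 64.2 CPM with doxycycline, a log2 difference of -0.40 (SE 0.0355, edgeR adjusted p 4.07e-12). Spry2 held 59.1, 60.1 and 53.0 CPM against 42.7, 44.5 and 45.1 CPM, a log2 difference of -0.38 (SE 0.0454, adjusted p 8.97e-09). In both genes all doxycycline libraries lay below all control libraries. Spry1 had between 46 and 95 reads per library, and its difference of 0.02 on the log2 scale (95% interval -0.308 to 0.343) was not resolved at this depth.

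The Spred genes, whose products bind neurofibromin and restrain RAS, differed from each other. Spred2 went from 84.8, 85.8 and 90.1 CPM to 79.6, 80.7 and 79.6 CPM with doxycycline, a log2 difference of -0.12 (SE 0.0362, edgeR adjusted p 0.0087). This call was lost without control replicate 3 or doxycycline replicate 1 (-0.105 to -0.097) and under library-size scaling alone (-0.084). Spred1, at 87.8, 91.2 and 93.1 CPM in control and 91.9, 93.1 and 92.1 CPM with doxycycline, had a difference of 0.03 (95% interval -0.036 to 0.09). The ETS factors both fell. Etv5 went from 128, 123 and 124 CPM to 104, 104 and 108 CPM, a log2 difference of -0.25 (SE 0.0304, adjusted p 2.06e-08), and Etv4 from 55.7, 52.7 and 51.7 CPM to 45.8, 49.6 and 47.9 CPM, a change of -0.16 (SE 0.0417, adjusted p 0.00237). The Etv4 call was lost without doxycycline replicate 1 (-0.12).

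dTAG-13 was compared with control to read the effect of the degrader with the construct off, with the same control libraries as above. Here 8 of the 10 members fell and none rose, beside 62.1% of all genes called, 30.0% as higher and 32.1% as lower. The median was -0.243 for the members and 0.019 for all genes tested. The median absolute change was similar, 0.243 for the members and 0.233 for all genes, so the members differed in direction more than in size. All 8 had no overlap between groups, which held for 65.5% of all genes. Spred2, Spry4, Dusp5 and Etv5 fell most.

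Spred2 held 55.2, 59.9 and 59.2 CPM with dTAG-13, against at least 84.8 CPM in control, a log2 difference of -0.58 (SE 0.0373, edgeR adjusted p 4.21e-17). Spry4 fell to 57.2, 57.5 and 59.96 CPM, a change of -0.55 (SE 0.0358, adjusted p 7.69e-17). Dusp5 fell to 51.7, 55.8 and 57.5 CPM, a change of -0.52 (SE 0.0398, adjusted p 8.99e-15). Each of these sets of libraries lay below all control libraries. Etv5 fell to 89.5, 88.7 and 85.1 CPM, a change of -0.51 (SE 0.0309, adjusted p 6.22e-18). Etv4 changed less than its paralog, to 45.2, 45.7 and 46.5 CPM (-0.22, SE 0.0418, adjusted p 1.44e-05). Spry2 changed by -0.26 (SE 0.0449), Spred1 by -0.20 (SE 0.0325) and Dusp6 by -0.12 (SE 0.026), at adjusted p of 2.52e-06, 1.33e-06 and 0.000176. Under library-size scaling alone Dusp6 was at -0.024 and no longer called, while Spry2 (-0.172), Etv4 (-0.13) and Spred1 (-0.106) were called at smaller values. Dusp4, at -0.06 (95% interval -0.189 to 0.076), and Spry1, at -0.13 (95% interval -0.457 to 0.203), were not called.

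dTAG-13 added to doxycycline cells was compared with doxycycline alone, a comparison that shares no library with dTAG-13 against control but uses the same doxycycline libraries as doxycycline against control. Of the 10 members, 6 fell and 2 rose, beside 33.4% of all genes called lower and 30.7% called higher (64.1% in all). In all 8 the groups did not overlap, which held for 67.2% of all genes. The members' median was -0.26 and that of all genes 0.003, with median absolute changes of 0.269 and 0.259. The 2 that rose were both ERK phosphatases. Dusp6 went from 163, 163 and 155 CPM to 192, 197 and 190.5 CPM, a log2 difference of 0.27 (SE 0.0265, edgeR adjusted p 9.39e-12). Dusp5 went from 47.8, 46.5 and 45.4 CPM to 53.1, 53.3 and 51.3 CPM, a change of 0.17 (SE 0.0429, adjusted p 0.000545). In both genes all libraries with dTAG-13 lay above all those without it.

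The 6 that fell were Spred2, Etv5, Spry4, Spred1, Etv4 and Dusp4. Spred2 fell to 57.9, 56.1 and 54.4 CPM (-0.51, SE 0.0384, edgeR adjusted p 4.29e-15). Etv5 fell to 78.0, 79.7 and 77.6 CPM (-0.43, SE 0.0321, adjusted p 4.52e-15) and Spry4 to 49.2, 50.1 and 47.0 CPM (-0.40, SE 0.0382, adjusted p 4.23e-12). All 3 had also fallen with dTAG-13 in the absence of doxycycline. Spred1, which doxycycline alone left without a call, fell to 72.7, 73.4 and 74.5 CPM (-0.33, SE 0.0332, adjusted p 2.13e-11), and Etv4 fell to 40.4, 39.6 and 40.4 CPM (-0.25, SE 0.0438, adjusted p 3.8e-06). Dusp4 changed by -0.18 (SE 0.0722, adjusted p 0.0326), a call lost with DESeq2 and with library size only (-0.165 to -0.154) and without doxycycline replicate 3 or cells with both agents replicate 1 or 3 (-0.175 to -0.139). Spry2 changed by 0.02 (95% interval -0.076 to 0.11) and Spry1 by -0.27 (95% interval -0.613 to 0.075), neither called.

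**Figure D2:**
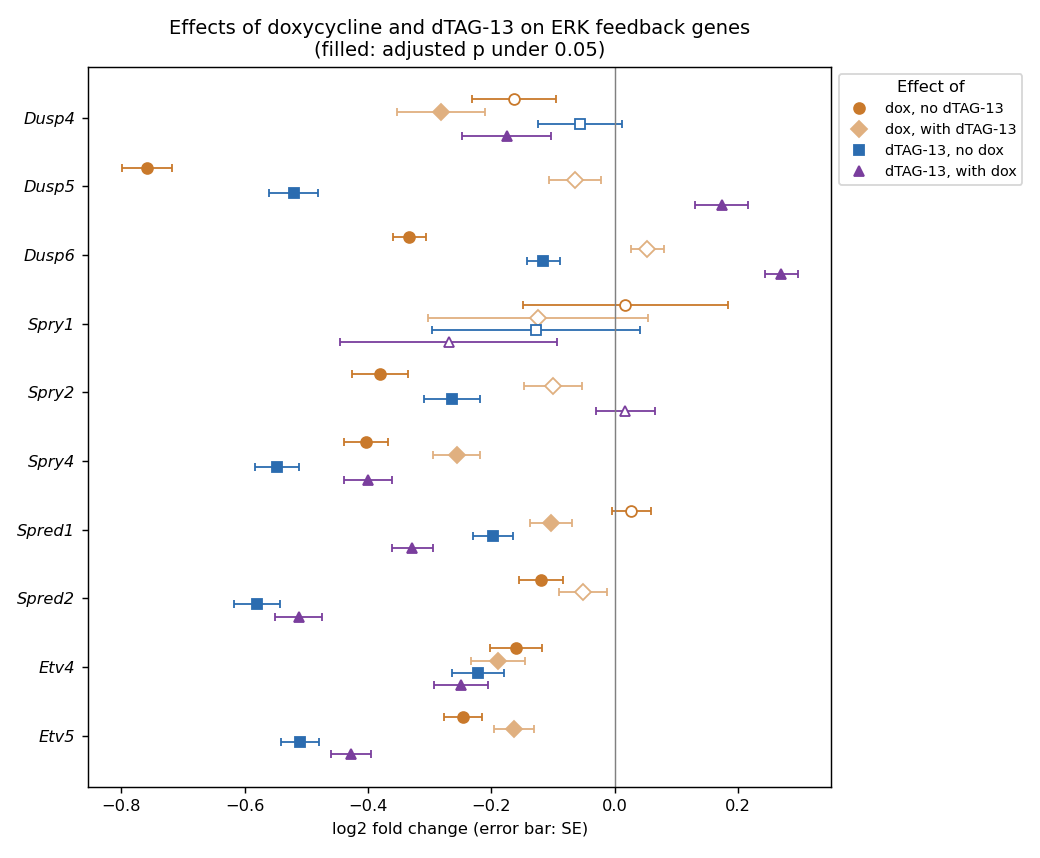
Log2 fold change of each member for doxycycline and for dTAG-13, each with the other agent absent and present. In the key dox is doxycycline, error bars are SE, and filled symbols passed an edgeR adjusted p under 0.05. Dusp5 and Dusp6 lie left of 0 for dTAG-13 without doxycycline (-0.52 and -0.12) and right of 0 with it (0.17 and 0.27), while Spred2 and Etv5 lie left of 0 in both.

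Log2 fold changes in the dTAG-13 comparisons fell with transcript length across genes. Over 11745 genes with a known exon length, Spearman's rho was 0.113 for doxycycline against control, -0.372 for dTAG-13 in its absence and -0.493 for dTAG-13 in its presence. Genes are not independent replicates, so no p is given. The members ran from 2087 bases (Spry2) to 6784 bases (Spred1) of merged exons. After each library's trend with length and GC content was removed, the members called for dTAG-13 against control again numbered 8. Spred2 was then at -0.53, Spry4 at -0.49, Spry2 at -0.49, Etv5 at -0.49 and Dusp6 at -0.20. Among doxycycline cells 9 members were then called, Dusp6 at 0.19 and Dusp5 at 0.14 still higher, and Spry2 was called lower, at -0.25 in place of 0.02. The direction of Spry2 in that comparison therefore depends on the correction.

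The interaction, the dTAG-13 effect with doxycycline minus that without it, tests whether the effects differ. It was called for 5 of the 10 members, 4 positive and 1 negative, beside 22.9% of all genes called, 13.2% of them positive and 9.64% negative as shares of all genes. The members' median was 0.075 and that of all genes 0.005, with median absolute values of 0.136 and 0.13. Dusp5 had the largest value among the members, 0.69 (SE 0.0586, edgeR adjusted p 5.27e-12), then Dusp6 at 0.39 (SE 0.0371, adjusted p 1.88e-10) and Spry2 at 0.28 (SE 0.0653, adjusted p 0.00138). These 3 were called in all 19 alternative settings and left-out libraries, with ranges of 0.623 to 0.732, 0.315 to 0.401 and 0.21 to 0.339. The same interaction read the other way is the doxycycline effect with dTAG-13 minus that without it. The call for Spry4 (0.15, SE 0.0524, adjusted p 0.0373) was lost without any 1 of 8 libraries, all but control replicate 3, doxycycline replicate 3, dTAG-13 replicate 3 and replicate 3 of the cells with both agents (0.124 to 0.146), with no low-count filter (0.148) and with library size only (0.076). The call for Spred1 (-0.13, SE 0.0465, adjusted p 0.0382) was lost in 4 other settings (-0.129 to -0.066), was kept at -0.201 with library size only, and was lost without any 1 of 7 libraries (-0.133 to -0.101): control replicate 1, doxycycline replicates 2 and 3, dTAG-13 replicates 2 and 3, and replicates 1 and 2 of the cells with both agents. Interactions of Etv5 (0.08, 95% interval -0.005 to 0.17), Spred2 (0.07, -0.037 to 0.173), Etv4 (-0.03, -0.147 to 0.09), Dusp4 (-0.12, -0.313 to 0.075) and Spry1 (-0.14, -0.619 to 0.336) were not called.

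**Figure D3:**
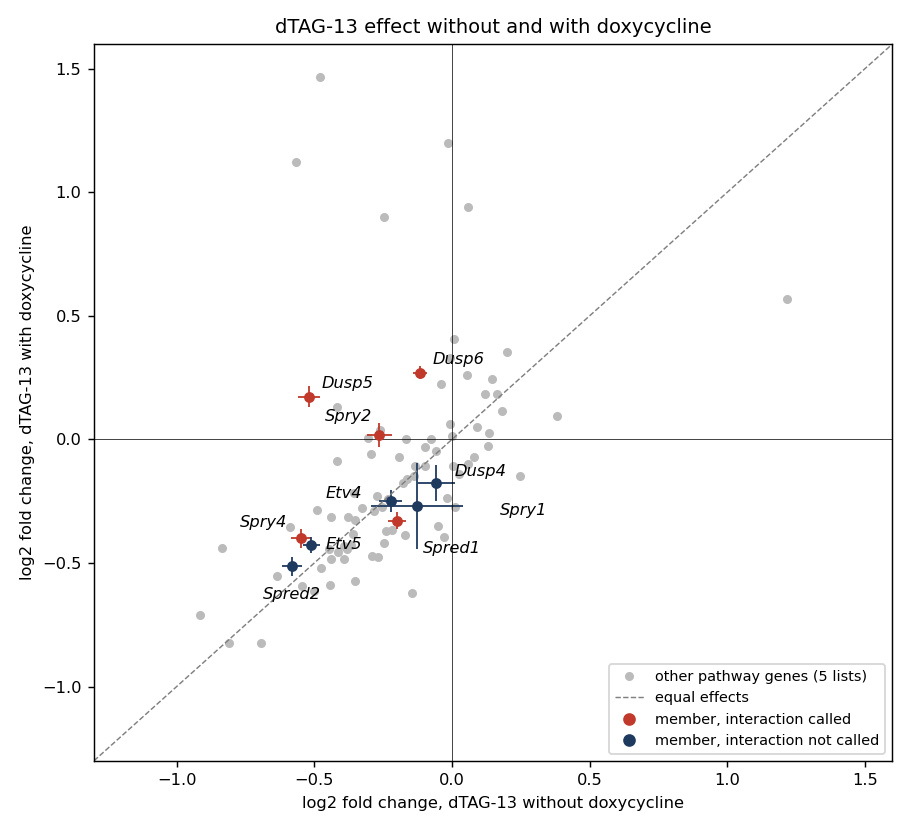
Log2 fold change with dTAG-13 in cells without doxycycline (horizontal) against that in cells with it (vertical), for the 10 members with SE bars (red where the interaction was called, blue where not) and for the other pathway genes in grey. On the dashed line both effects are equal. Dusp5, Dusp6 and Spry2 sit above the line, with interactions of 0.69, 0.39 and 0.28, and Etv5, Etv4 and Spred2 sit close to it.

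Among cells with dTAG-13, doxycycline was compared through the cells with both agents against those with dTAG-13 alone, which share no library with doxycycline against control. Here 5 members fell and none rose, beside 20.4% of all genes called, 10.7% as higher and 9.64% as lower. The members' median was -0.114 (all genes -0.001), and the median absolute change was 0.114 (all genes 0.086). Groups did not overlap in 6 members, the 5 called ones and Dusp6, as in 34.3% of all genes. Dusp4 fell from 17.5, 16.9 and 16.4 CPM to 13.1, 14.7 and 13.9 CPM, the largest of these changes at -0.28 (SE 0.0714, edgeR adjusted p 0.00326). Spry4 changed by -0.26 (SE 0.0385, adjusted p 2.14e-06), Etv4 by -0.19 (SE 0.0439, adjusted p 0.0014) and Etv5 by -0.16 (SE 0.0325, adjusted p 0.000207). Spred1 changed by -0.10 (SE 0.0336, adjusted p 0.0239), a call lost with DESeq2 and with no low-count filter (-0.098 to -0.093) and without replicate 1 or 2 of the cells with both agents or replicate 2 or 3 of the dTAG-13 cells (-0.104 to -0.09). Of the 4 genes that fell most with doxycycline alone, Spry4 was called here and the other 3 were not: Dusp5 at -0.06 (95% interval -0.147 to 0.018), Dusp6 at 0.05 (0.001 to 0.104) and Spry2 at -0.10 (-0.192 to -0.008). The Spry2 value became a call after the length and GC correction and with library size only (-0.143 to -0.135).

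With both agents against control, 9 members fell and none rose, beside 32.5% of all genes called as higher, 33.8% as lower and 66.3% in all. The groups did not overlap in 9 members and in 68.8% of all genes. This comparison shares its libraries with those above, and its values are the sums of effects already given. Spry4 was lower by the largest amount, -0.80 (SE 0.0372, edgeR adjusted p 8.47e-22), a fall to 0.573 of control, followed by Etv5 at -0.67 (SE 0.0317), Spred2 at -0.63 (SE 0.0381) and Dusp5 at -0.59 (SE 0.0407). Etv4 was at -0.41, Spry2 at -0.36, Dusp4 at -0.34 and Spred1 at -0.30. After the length and GC correction Spry2 was at -0.63 in this comparison. Dusp6 was lower by the least among the called members, at -0.06 (SE 0.0261, adjusted p 0.0322). Its value depended on the setting: it was -0.15 (adjusted p 2.94e-06) after the length and GC correction, and the call was lost in 6 other settings (-0.059 to -0.006) and without control replicate 1 or replicate 1 or 3 of the cells with both agents (-0.064 to -0.058). Spry1 was the 1 member not called, at -0.25 (95% interval -0.596 to 0.092).

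The rest of the pathway was read from 5 lists of genes. The share of the 12910 genes with a call is the backdrop for the counts below. It was 33.5% for doxycycline (14.8% up, 18.7% down) and 62.1% for dTAG-13 (30.0% up, 32.1% down). For dTAG-13 among doxycycline cells it was 64.1% (30.7% up, 33.4% down). For doxycycline among dTAG-13 cells it was 20.4% (10.7% up, 9.64% down). Whether a list differed from these shares was not tested. Named for each comparison are the 2 called genes with the largest absolute change among those averaging at least 1 CPM. Among receptor tyrosine kinases and their ligands, 19 of 24 genes were tested. With doxycycline 4 rose and 2 fell, led by the ligand Hgf (0.80, SE 0.0649, edgeR adjusted p 3.38e-13) and the receptor Pdgfrb (0.68, SE 0.0978, adjusted p 4.97e-07), and the list's median was -0.014. With dTAG-13 3 rose and 9 fell (median -0.134), led by the receptors Igf1r (-0.81) and Egfr (-0.49, lost without control replicate 2 at -0.447 and after the length and GC correction at -0.338). The ligand Egf changed by more, rising by 1.22 (SE 0.2784, edgeR adjusted p 0.000223), but averaged 0.994 CPM, below the 1 CPM set for naming. Egfr was low too, at 36 to 94 reads per library. With dTAG-13 among doxycycline cells 1 rose and 10 fell (median -0.285), led by Igf1r (-0.82) and the insulin receptor Insr (-0.57). After the length and GC correction Igf1r was still called lower at -0.445 and -0.391 in these 2 comparisons, and Insr at -0.224. For doxycycline among dTAG-13 cells 3 rose and 4 fell (median -0.033), again led by Pdgfrb (0.68) and Hgf (0.52).

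All 25 genes of the RAS-RAF-MEK-ERK core and its adaptors were tested. With doxycycline 6 rose and 7 fell (median -0.02), led by Mapk3, which encodes an ERK protein (0.37, SE 0.0388, edgeR adjusted p 8.93e-10), and Rasa1, a RAS GTPase-activating protein (-0.24). With dTAG-13 5 rose and 18 fell (median -0.179), led by Nf1, which encodes neurofibromin (-0.69), and the kinase Braf (-0.54). Among doxycycline cells dTAG-13 went with 1 higher and 17 lower (median -0.272), led by Nf1 (-0.82) and the ERK-activated kinase Rps6ka3 (-0.61). After the length and GC correction Nf1 was at -0.448 and -0.494 in the 2 dTAG-13 comparisons. In the first of these Braf ranged from -0.575 to -0.394 over the alternative settings and left-out libraries, and was called in each. For doxycycline among dTAG-13 cells none rose and 5 fell (median -0.038). Of these, Rasa1 changed by -0.26 and the adaptor Gab1 by -0.26 (SE 0.0955, adjusted p 0.0474), and the Gab1 call was lost in 4 other settings (-0.258 to -0.246) and without any 1 of 9 libraries (-0.286 to -0.215), all but control replicates 2 and 3 and doxycycline replicate 3.

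The 7 other MAP kinase phosphatases were all tested. With doxycycline 1 rose and 2 fell, the latter the immediate early phosphatase Dusp1 (-0.57, SE 0.1188, edgeR adjusted p 0.00018) and Dusp9 (-0.36, SE 0.0286, adjusted p 4.08e-13), with a median of -0.098. With dTAG-13 none rose and 4 fell (median -0.218), led by Dusp7 (-0.48) and Dusp8 (-0.30, lost without dTAG-13 replicate 3 at -0.285 and in 3 other settings, -0.305 to -0.116). With dTAG-13 among doxycycline cells 2 rose and 3 fell (median -0.06), led by Dusp1 (1.2, SE 0.1137, adjusted p 3.51e-12) and Dusp7 (-0.52). For doxycycline among dTAG-13 cells Dusp1 rose (0.64), Dusp9 fell (-0.13) and the median was -0.003.

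Of 12 other feedback regulators, 11 were tested. With doxycycline 2 rose and 4 fell (median -0.078), led by the PEA3-group factor Etv1 (0.58, SE 0.0894, edgeR adjusted p 1.61e-06) and the EGF receptor inhibitor Errfi1 (-0.36, SE 0.0383, adjusted p 8.33e-10). Etv1 thus rose where its relatives Etv4 and Etv5 fell. With dTAG-13 1 rose and 8 fell (median -0.271), led by the receptor ubiquitin ligase Cbl (-0.91) and the adaptor Sh2b3 (-0.64). With dTAG-13 among doxycycline cells none rose and 7 fell (median -0.24), led by Cbl (-0.71, and -0.387 after the length and GC correction) and Etv1 (-0.62). Cbl and Etv1 have 12345 and 13296 bases of merged exons, more than any member. The length trend given above is therefore a limit on the size of their falls with dTAG-13. For doxycycline among dTAG-13 cells 1 rose and 5 fell (median 0.004), led by Cblb (-0.27) and Errfi1 (-0.23).

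Other ERK-responsive genes numbered 20, of which 19 were tested. With doxycycline none rose and 10 fell (median -0.133), led by the immediate early genes Fos (-1.46, SE 0.2042, edgeR adjusted p 2.66e-07) and Egr1 (-1.35, SE 0.0283, adjusted p 5.93e-33). With dTAG-13 1 rose and 10 fell (median -0.247), led by the ephrin receptor Epha2 (-0.59) and Egr1 (-0.57). With dTAG-13 among doxycycline cells 8 rose and 8 fell (median 0.015), led by Fos (1.47) and Egr1 (1.12). For doxycycline among dTAG-13 cells 6 rose and 4 fell (median 0.031), led by Egr1 (0.33) and Junb (0.22). Fos was low, at 26 to 88 reads per library, with 26, 31 and 28 reads in the doxycycline libraries.

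**Figure D4:**
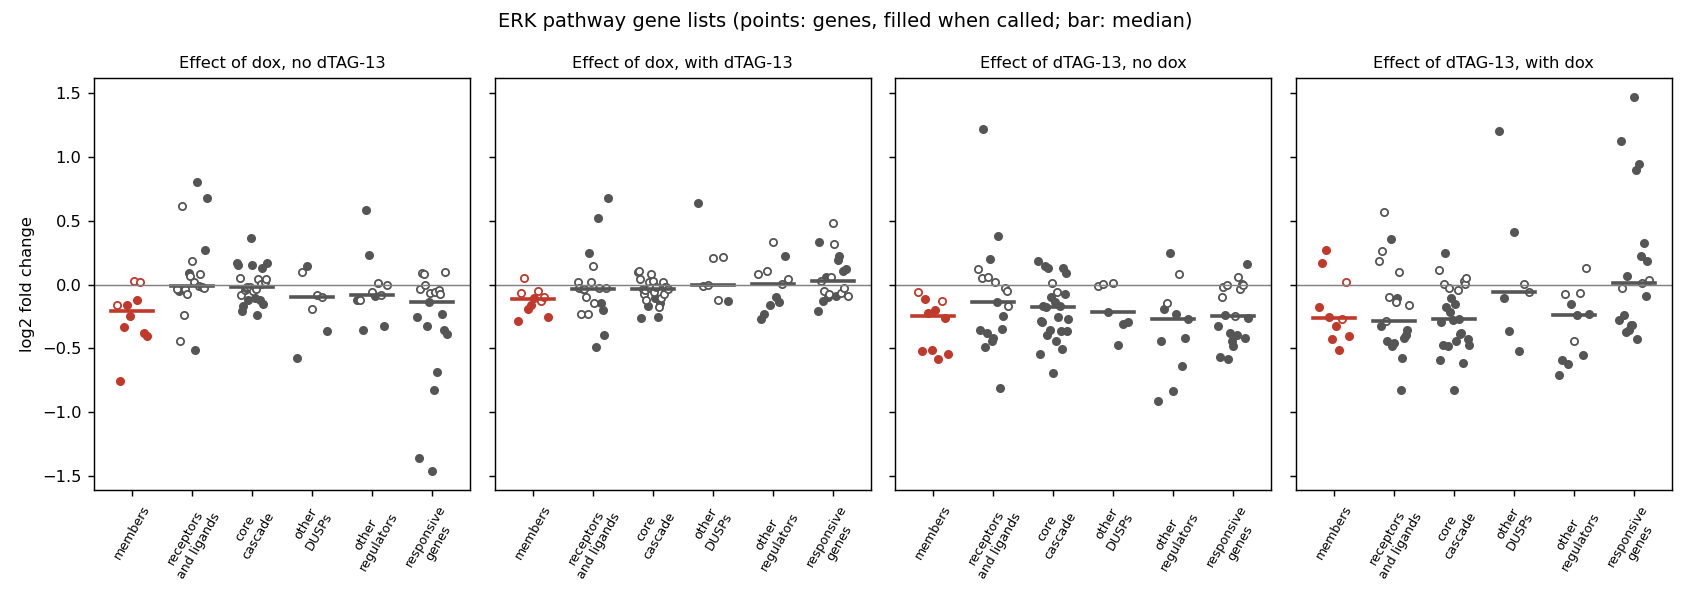
Log2 fold changes of the 10 members (red) and of the tested genes in the 5 other pathway lists (grey) in 4 comparisons. Points are genes, filled where called by edgeR, and horizontal bars are medians. With doxycycline alone the members' median was -0.205 beside -0.133 for the other ERK-responsive genes, -0.098 for the other phosphatases, -0.078 for the other regulators, -0.02 for the core and -0.014 for the receptor list.

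The genes whose pattern over the 12 libraries was most like that of 3 members, 1 per role, were sought among the 9105 genes averaging 10 CPM or more. The 12 libraries come from 4 cultures and share their scaling, so these values describe the match only. For Dusp6 the closest was Egr1 (Pearson r = 0.979, Spearman rho = 0.937), at 279 ± 10.4 CPM in control, 109 ± 1.95 with doxycycline, 188 ± 1.57 with dTAG-13 and 238 ± 7.48 with both (SD, n = 3). Ppp1r15a (r = 0.974, rho = 0.937) and Rrp9 (r = 0.965, rho = 0.909) followed. For Spry4 the closest was Ccnd1, the gene of cyclin D1 (r = 0.995, rho = 0.986), at 2008 ± 18.2, 1687 ± 18.0, 1603 ± 22.3 and 1391 ± 22.5 CPM in the same order, then Tars (r = 0.991, rho = 0.944) and Cert1 (r = 0.99, rho = 0.972). For Etv5 they were Tns3 (r = 0.993, rho = 0.951), Gosr2 (r = 0.992, rho = 0.958) and Ktn1 (r = 0.991, rho = 1.0).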

How the data were processed

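RNA was measured in 12 poly(A) libraries, 3 technical replicates in each of 4 groups. The authors deposited raw read counts for 27179 Entrez gene IDs. Reads were aligned with Subread, per the file headers, and bcl2fastq 2.17, featureCounts and the build mm10 are named in the submitters' processing notes. For the annotation, the strand setting and multi-mapping reads, no statement is given in the sources used here. Symbols came from RefSeq for GRCm38.p6 (25275 IDs) and GENCODE M21 (18 IDs), and 1886 IDs had none. Exon lengths and GC content came from GENCODE M21 and covered 91% of tested genes.

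Counts were filtered with filterByExpr, scaled by TMM (factors 0.9647 to 1.0349) and tested in R 4.3.3 with edgeR 4.0.16 by the robust quasi-likelihood F test, two-sided, with 1 mean per group over all 12 libraries. Benjamini-Hochberg adjustment ran over 12910 genes, with calls at adjusted p under 0.05. There were 6 contrasts. SE is the absolute log2 fold change over the square root of F, and 95% intervals are 1.96 SE either side, unadjusted for the number of genes. The code was tested on simulated data. Libraries of 1 group differed by more than counting noise (chi-square per degree of freedom 2.429 to 8.817), so none was merged.

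Alternatives were RLE size factors, library size only, DESeq2 1.42.0, no low-count filter, 1 CPM in 3 libraries, a block for the replicate number, a fit on only the groups compared, a correction for length and GC content (splines of 5 degrees of freedom in each library), and leaving out each library. The members, lists and rules were chosen with earlier results of these data known. Named from each list were the 2 called genes with the largest absolute log2 fold change and a mean of at least 1 CPM per contrast, and, for Dusp6, Spry4 and Etv5, the 3 genes with the highest Pearson r of log2 CPM. Adpgk was named as the check of doxycycline. The counts of both agents against control are given for the members only.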

Additional observations from a re-analysis of the deposited data

Results flagged for a closer look

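The dTAG-13 effect with doxycycline minus that without it, tested as an interaction in edgeR, was called for 5 members and for part of each pathway list. By list, 1 gene was called positive and 4 negative among receptors and ligands, 2 and 3 in the core, 2 and 0 among other phosphatases, 2 and 2 among other regulators, and 9 and 1 among other ERK-responsive genes. Named below are the members, Adpgk and, by the rule given for the lists, the 2 called genes per list with the largest absolute value among those averaging at least 1 CPM. Among the members it was 0.69 for Dusp5, 0.39 for Dusp6, 0.28 for Spry2, 0.15 for Spry4 and -0.13 for Spred1, the last 2 with the lost calls given above. Among the list genes so named it was positive for Fos (1.95, SE 0.2757, adjusted p 9.75e-07), Egr1 (1.69, SE 0.0394, adjusted p 6.51e-31), Dusp1 (1.21, SE 0.1595, adjusted p 2.24e-07), Socs3 (0.55, SE 0.0835, adjusted p 3.94e-06) and Dusp9 (0.23, SE 0.0408, adjusted p 4.23e-05). The Fos value rests on 26 to 88 reads per library.

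It was negative for Etv1 (-0.48, adjusted p 0.00756), Pdgfra (-0.30, adjusted p 9.46e-08), Hgf (-0.28, adjusted p 0.019), Mapk3 (-0.28, adjusted p 0.00019) and Sos2 (-0.21, adjusted p 0.0144) in edgeR. The Hgf call was lost without control replicate 1, doxycycline replicate 1 or dTAG-13 replicate 2 (-0.26 to -0.223) and after the length and GC correction (-0.212), as was the Sos2 call after that correction (-0.136). Adpgk itself had an interaction of -0.14 (SE 0.0297, adjusted p 0.000412), which was not called after the correction (-0.077). Of all genes tested, 13.2% had a positive called interaction and 9.64% a negative one.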

How the results depend on the processing

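Over the members, 1131 of 1190 values under an alternative kept their direction and their side of the threshold, 46 lost the call, 4 gained it and 9 turned in sign. Sign changes were Dusp4 for dTAG-13 against control (0.035) and the Spred2 interaction (-0.003) with library size only, and Spred1 for doxycycline against control (-0.027) and Spry2 for dTAG-13 among doxycycline cells (-0.246, the 1 of these that was called) after the length and GC correction. Without single libraries, Spred1 for doxycycline against control went to -0.001 (range -0.001 to 0.042), Spry1 for the same contrast to -0.043 and -0.078 (range -0.078 to 0.142), and Spry2 for dTAG-13 among doxycycline cells to -0.02 and -0.008 (range -0.02 to 0.037). The causes were not tested.

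The number of members called for the interaction went from 5 to 3 with no low-count filter and ranged from 3 to 5 without single libraries. It was 3 without control replicate 1, doxycycline replicate 2, dTAG-13 replicate 2 or replicate 1 or 2 of the cells with both agents. Counts of members and of all genes in the other contrasts stayed within 1.5 times of their values in every alternative run. With library size only, the core list had 13 in place of 5 calls for doxycycline among dTAG-13 cells and 8 in place of 5 for the interaction, and the other phosphatases 2 in place of 4 for dTAG-13 against control (also 2 after the length and GC correction) and 4 in place of 2 for the interaction. The receptor list had 3 in place of 5 interaction calls after that correction and without control replicate 1.

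Replicate numbers did not pair the libraries: the deviations of same-numbered libraries correlated at -0.0208 to 0.0801 over 18 pairs, and 3 of 12 libraries correlated best with their own number. With the replicate block, 4172 genes were called for doxycycline, 7938 for dTAG-13, 8205 for dTAG-13 among doxycycline cells and 2810 for the interaction, with 7, 8, 8 and 5 members among them. Depth limits Spry1, whose 46 to 95 reads per library gave an SE of 0.1661 for doxycycline against control.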
